A study of Mus musculus with 17 samples.

Results

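H3K9ac and H3K56ac, acetylation of lysines 9 and 56 of histone H3, were compared in the same cells: mouse embryonic stem cells that lacked Sirt6 (KO) and had been exposed to retinoic acid (RA). The members were the 3147 H3K9ac peaks and 2239 H3K56ac peaks of that condition, merged wherever peaks overlapped by 1 bp or more. This gave 3482 regions, out of 6400 regions formed in the same way from all 8 acetylation lists of the series. Each region belonged to 1 of 3 classes: both marks, H3K9ac only or H3K56ac only.

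The cells were of the 129 mouse strain, and the wild-type (WT) cells used for comparison were of the same strain. Stem cells were kept on feeder cells, which were removed by plating before the experiment. For RA treatment, cells were moved to medium without LIF, the cytokine that maintains the stem cell state, and a day later received all-trans RA for 2 days, from a 0.01 M stock in DMSO diluted 10000-fold. They were harvested the day after RA was taken away. Untreated KO and WT cells received no RA, so RA and the loss of LIF cannot be told apart, and the labels name no DMSO control. Chromatin immunoprecipitation with sequencing (ChIP-seq) was done with 1 library per mark and condition, so differences between marks or conditions could not be set against the spread of replicates and were not tested. The sources used here do not state how many KO lines or cultures the libraries came from, or whether both marks were taken from 1 chromatin preparation. The Sirt6 antibody gave 14510 peaks in untreated WT cells and 0 in each of 2 libraries of untreated KO cells. These libraries differed in depth: 2008232 tags after filtering in WT, and 40006795 and 48956556 in KO. The lowest summit pileup of a WT Sirt6 peak was 4 and the median 10. Sirt6 was not profiled here in RA-treated cells.

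Sirt6 is a NAD-dependent deacetylase that removes acetyl groups from both of these lysines. Lysine 9 lies in the flexible tail of histone H3, and its acetylation is best known from active promoters and enhancers. Lysine 56 lies in the folded core of the histone near the point where DNA enters and leaves the nucleosome, and its acetylation is associated with histone exchange and with regulatory elements of stem cells. RA acts through nuclear receptors that bind DNA and drives stem cells out of pluripotency. Positions are in mouse build mm9. Genes and sequences at the regions were not analysed, for want of a genome and annotation in that build, and the cell type could not be checked against markers, since expression was not analysed here.

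The H3K9ac library held 10250030 tags after the authors' filtering and the H3K56ac library 6837952, a ratio of 1.499. Fold enrichment is the authors' value for each peak: the pileup of fragments at the peak summit over the local background of the same library. Both lists were called with no control library, so reads that pile up in any library were not removed. Intervals in parentheses are at 95% and reflect the counting of regions alone, which are not replicates.

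Most H3K56ac regions also carried H3K9ac, while a large share of H3K9ac regions stood alone. Both marks were called in 1889 regions, or 54.3% of the 3482 (Wilson interval 52.6% to 55.9%). H3K9ac alone was called in 1250 regions, or 35.9% (34.3% to 37.5%), and H3K56ac alone in 343, or 9.85% (8.90% to 10.9%). Of the regions with H3K56ac, 84.6% also had H3K9ac, and of those with H3K9ac, 60.2% also had H3K56ac. For scale, 51.9% of the 6400 regions of all 8 lists had each mark called in at least 1 list of any condition.

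There were 3.64 times as many H3K9ac-only as H3K56ac-only regions (exact interval 3.23 to 4.12), and H3K9ac was the deeper library. When both lists were held to the 2239 peaks with the smallest p, which by construction makes the single-mark classes about equal in number, the share with both marks was 59.6%. In the other 3 conditions the ratio of regions was 3.80 in untreated KO cells, 2.77 in RA-treated WT cells and 1.04 in untreated WT cells. The H3K9ac to H3K56ac tag ratios of those conditions were 1.25, 1.39 and 0.991, in the same order. The part of depth in the ratio of regions was not tested.

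Regions with both marks were the stronger and longer ones. The median H3K9ac fold enrichment was 14.04 in regions with both marks (quartiles 9.97 and 19.6) and 8.48 in H3K9ac-only regions (7.19 and 9.90). The median H3K56ac fold enrichment was 11.9 with both marks (8.73 and 16.9) and 7.64 in H3K56ac-only regions (6.97 and 9.28). The upper quartile of each single-mark class thus lay below the median of its mark in regions with both. H3K9ac peaks had a median length of 280 bp with both marks and 221 bp alone, and H3K56ac peaks 292 bp and 236 bp. Single-mark peaks were often hardly longer than 1 fragment. The caller's fragment length was 204 bp with H3K9ac and 227 bp with H3K56ac. Of the H3K9ac-only peaks 56.1%, and of the H3K56ac-only peaks 66.2%, exceeded it by 10% or less. In regions with both marks these shares were 15.0% and 23.2%.

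The second mark was called more often the stronger the first was. When the 3139 regions with H3K9ac were put into 4 equal groups by H3K9ac fold enrichment, H3K56ac was also called in 29.4% of the lowest group (26.3% to 32.7%). The share was 39.9% in the second, 73.2% in the third and 98.2% in the highest group (97.0% to 98.9%). For the 2232 regions with H3K56ac, H3K9ac was called in 62.4% of the lowest group (58.3% to 66.3%) and in 83.0%, 93.5% and 99.6% of the following ones. At a fold of at least 15, 25 of 881 H3K9ac regions and 2 of 623 H3K56ac regions lacked the second mark. At a fold of at least 25, all 206 H3K9ac regions and all 123 H3K56ac regions had both. Whether a region without a second call lacks that mark, or holds it below the call limit, was not tested.

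**Figure D1:**
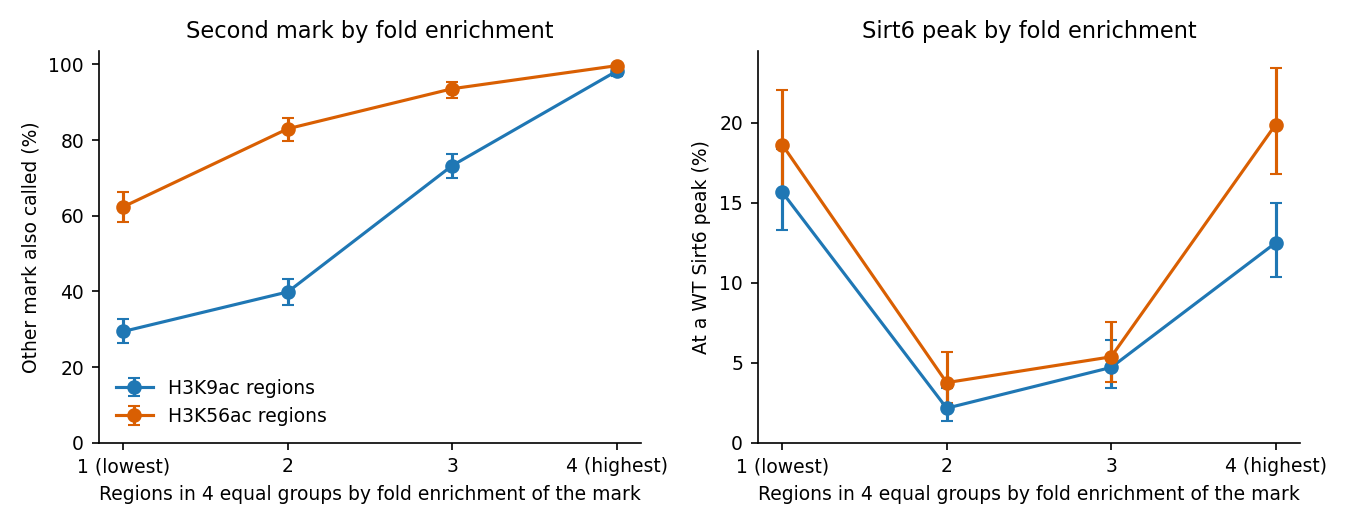
Left, share of regions in which the other mark was also called; right, share of regions at a WT Sirt6 peak, both in percent, in 4 equal groups by fold enrichment (H3K9ac in blue, H3K56ac in orange) in RA-treated KO cells. Points are shares and bars are Wilson 95% intervals; the left shares rise from 29.4% and 62.4% to 98.2% and 99.6%, and the right shares are high in the lowest and highest groups and low between.

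The 5 regions with the highest fold enrichment for both marks, ranked by the smaller of the 2 folds, lay on 5 different chromosomes, and each overlapped a WT Sirt6 peak and was called in all 8 acetylation lists. The first, at chr13:86453006-86453381, had an H3K9ac fold of 38.7 and an H3K56ac fold of 35.8, with the 2 summits 11 bp apart. The region at chrX:60379570-60379965 had folds of 37.0 and 35.5 and a summit offset of 2 bp. The one at chr12:50352099-50352459 had folds of 37.0 and 35.3. The last 2 lay at chr15:67742136-67742515 (34.3 and 33.0) and at chr4:92652797-92653209 (32.7 and 32.5). The local background at these 5 regions was 2.86 to 5.51 times the genome-wide value for H3K9ac and 5.21 to 8.17 times for H3K56ac. Of the 20 highest regions with both marks, 14 overlapped a Sirt6 peak and 19 were called in all 8 lists. In the whole class these shares were 10.4% and 52.5%, and 26.9% of the 6400 regions overlapped a Sirt6 peak.

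The strongest H3K9ac-only regions were also called in other conditions. The highest lay at chr7:27835707-27835952, with an H3K9ac fold of 23.4, and was called in each of the other 6 acetylation lists, the 3 H3K56ac lists among them. The next lay at chrX:42662191-42662421 (22.8), at chr14:15262723-15263019 (21.7), at chr4:12207670-12207904 (20.5) and at chr13:82930108-82930366 (20.05). All 5 had an H3K56ac call in both WT conditions, and none overlapped a Sirt6 peak. Of the 20 highest H3K9ac-only regions, 0 overlapped one, beside 6.24% of the whole class.

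The strongest H3K56ac-only regions were also called in untreated KO cells. The highest, at chr15:62601918-62602215, had an H3K56ac fold of 23.7 and overlapped a Sirt6 peak with a fold of 13.0. In untreated KO cells it carried both marks, and neither WT condition had a call there. The region at chrX:7955880-7956179 (17.4) and that at chr4:113276759-113277105 (14.7) showed the same pattern without a Sirt6 peak. The region at chr9:84118285-84118579 (14.9) was also called for both marks in untreated KO cells and for H3K56ac in RA-treated WT cells. The fifth, at chr10:50849941-50850219 (14.5), was called elsewhere only for H3K56ac in untreated KO cells. Of the 20 highest H3K56ac-only regions, 6 overlapped a Sirt6 peak, beside 20.1% of the whole class.

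In regions with both marks the 2 fold enrichments rose together. Across the 1889 regions the Pearson correlation of the log2 folds was 0.867 and the Spearman correlation of the folds was 0.830. This describes regions chosen for having both calls, in libraries from the same cells, and weak pairs were cut off by the call limit. The H3K56ac fold was the higher one in 534 regions (28.3%), and the median log2 ratio of H3K56ac to H3K9ac fold was -0.18 (quartiles -0.38 and 0.03). That offset depended on the scale. The authors' caller adds 1 to pileup and background, which lowers a fold more where the counts are lower. On summit pileup divided by the genome-wide background of each library, the median log2 ratio was -0.00077, and 941 regions (49.8%) had the higher H3K56ac value. That scale leaves out the added 1 and also replaces the local by the genome-wide background. The part of each in the change was not tested.

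**Figure D2:**
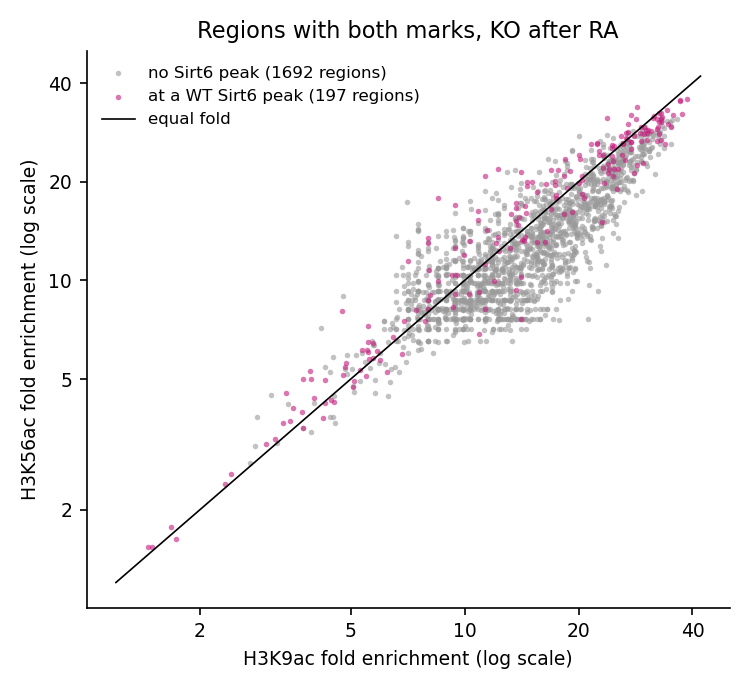
H3K56ac fold enrichment against H3K9ac fold enrichment, both on log scales, for the 1889 regions with both marks in RA-treated KO cells. Each point is a region, pink points are the 197 at a WT Sirt6 peak and grey points the other 1692; 534 regions lie above the line of equal fold.

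A few regions departed far from this common course. The highest H3K56ac to H3K9ac fold ratio was 2.46, at chr3:57088564-57088898, where the H3K9ac fold was 7.06 and the H3K56ac fold 17.4. It was followed by chr3:78299813-78300140 (ratio 2.11), which overlapped a Sirt6 peak, and chr14:37409869-37410253 (2.07). At the other end, the ratio was 0.360 at chr16:82705240-82705543, with an H3K9ac fold of 21.2 and an H3K56ac fold of 7.64. It was 0.413 at chr15:91432092-91432358 and 0.429 at chr7:64897852-64898114. The 3 regions with the highest ratios were all called for both marks in untreated KO cells, as were 73.4% of all regions with both marks. The 3 with the lowest were each called for both marks in RA-treated WT cells and for H3K56ac in untreated WT cells. In the whole class these shares were 78.7% and 80.4%. None of the 3 had an H3K56ac call in untreated KO cells, where 76.3% of the class had one. These are 3 regions picked at each end, and no trait of such regions was tested.

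The summits of the 2 marks nearly coincided. The median distance between them was 19 bp (quartiles 9 and 37), and 84.8% of the regions (1601) had summits within 50 bp of each other. The overlap that defines these regions bounds this distance, and no reference distance was computed. Neither mark lay to one side: the H3K56ac summit had the higher coordinate in 937 regions, the lower in 910 and the same in 42. In 53.7% of the regions the shorter peak lay wholly within the longer one, and in 2 regions the overlap was under 50% of the shorter peak. Offsets of over 150 bp were found in 31 regions, of which 25 were among the 472 with the longest peaks. The median offset was 16, 18 and 15 bp in RA-treated WT, untreated KO and untreated WT cells.

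**Figure D3:**
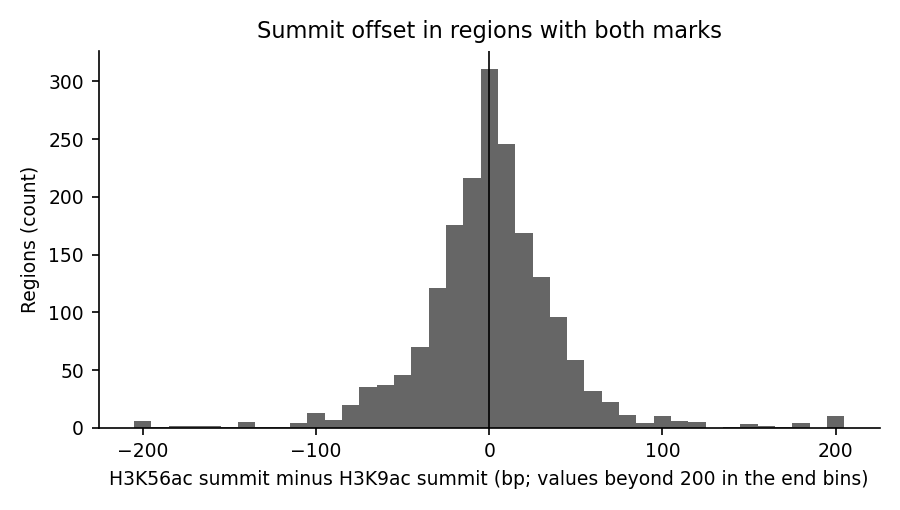
Number of regions with both marks (vertical axis) by H3K56ac summit minus H3K9ac summit in bp (horizontal axis, bins of equal width, values beyond the axis placed in the end bins) in RA-treated KO cells. The offsets are centred on 0, with 937 regions to the right, 910 to the left and 42 at 0.

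The largest offset, -868 bp, was in a 1800-bp region on an unplaced contig (chrUn_random:5495452-5497251), where the local background was 54.6 times the genome-wide value for H3K9ac and 70.7 times for H3K56ac. Offsets of 687 bp and 359 bp followed, at chr6:29697908-29699055 and at chr17:15160470-15161044. The latter also had the smallest overlap of any region counted as having both marks, 3 bp, and 46 and 114 bp came next, on chromosomes 4 and 11. Just outside the limit, the H3K9ac-only region at chr11:3001593-3001812 lay 42 bp from an H3K56ac peak. Those at chr2:86456095-86456300 and at chrUn_random:5321706-5321982 lay 66 and 78 bp away. Such near misses were rare, since 26 of the 1250 H3K9ac-only regions (2.08%) and 5 of the 342 H3K56ac-only regions with an H3K9ac peak on the same chromosome (1.46%) lay within 1000 bp of a peak of the other mark. The median distance was 343516 bp and 247038 bp.

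Sirt6 peaks of untreated WT cells were most frequent at H3K56ac-only regions. They overlapped 69 of the 343 H3K56ac-only regions, or 20.1% (16.2% to 24.7%), 197 of the regions with both marks, or 10.4% (9.13% to 11.9%), and 78 of the H3K9ac-only regions, or 6.24% (5.03% to 7.72%). Among the 6400 regions of all 8 lists the share was 26.9% (1723 regions), so each class lay below it. That share owes much to untreated KO cells, in which 987 H3K9ac-only regions alone lay at Sirt6 peaks. At regions with both marks in WT cells the share was 10.0% after RA and 7.32% untreated. The 26.9% is thus no measure of the usual share in a single condition. The H3K56ac-only share exceeded the H3K9ac-only share by 13.9 percentage points (Newcombe interval 9.70 to 18.6). The share at regions with both marks exceeded the H3K9ac-only share by 4.19 points (2.22 to 6.09) and lay 9.69 points below the H3K56ac-only share (-9.69, interval -14.4 to -5.52). With a stricter limit on the acetylation lists, a −log10 q of at least 10, the last difference was near 0 (0.200, interval -5.19 to 4.26). The H3K56ac-only share was then 11.2% and the H3K9ac-only share 1.66%. The excess of regions with both marks over H3K9ac-only regions was 0.783 points (-1.32 to 3.005) without the regions called in all 8 lists, which by definition removes regions of the first class alone.

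**Figure D4:**
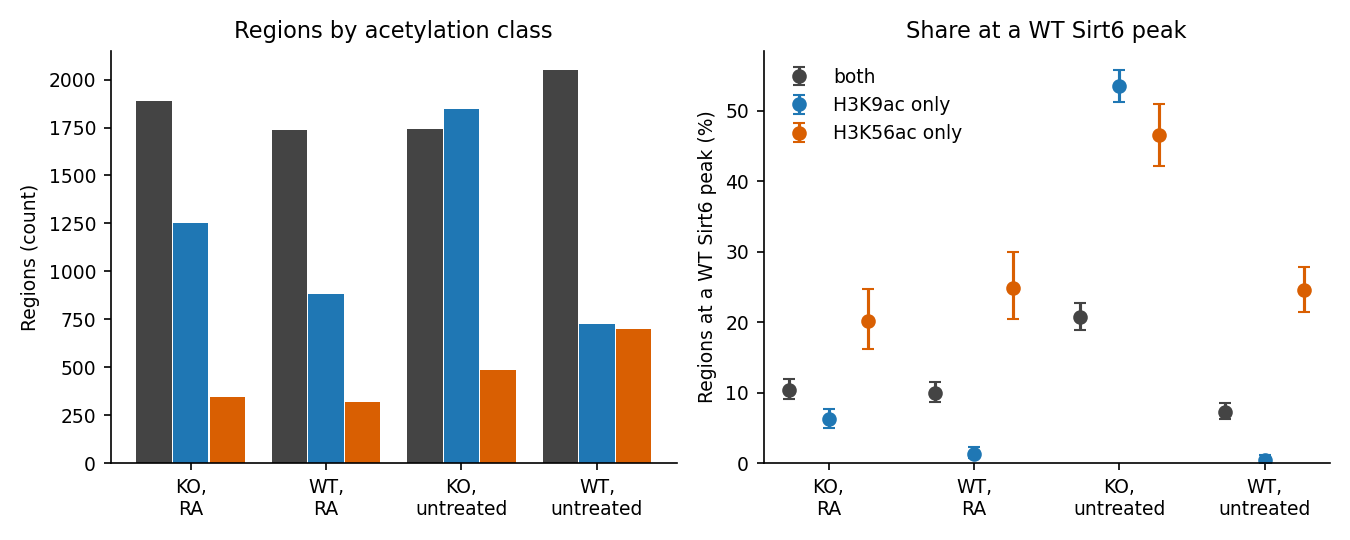
Left, number of regions with both marks, H3K9ac only or H3K56ac only; right, share of each class at a WT Sirt6 peak in percent, for RA-treated KO and WT and untreated KO and WT cells. Bars are counts from 1 library per mark, points are shares and whiskers Wilson 95% intervals; in RA-treated KO cells the shares are 10.4%, 6.24% and 20.1%.

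The order of the single-mark classes was the same in both WT conditions and the opposite in untreated KO cells. H3K56ac-only regions lay at Sirt6 peaks in 24.8% of cases and H3K9ac-only regions in 1.25% in RA-treated WT cells, and in 24.5% and 0.413% in untreated WT cells. In untreated KO cells the shares were 46.5% and 53.4%. The H3K9ac-only share in RA-treated KO cells, 6.24%, thus lay between the WT values and that of untreated KO cells. It was 1.66% with a −log10 q of at least 10 in the acetylation lists and 1.24% with lists of equal length. Its place between the other conditions thus depended on the call limit. The shares of the other conditions under those settings are not given here. These are 4 pairs of libraries, and the differences between conditions were not tested.

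Sirt6 overlap did not follow fold enrichment in 1 direction. In the 4 groups by H3K9ac fold, from lowest to highest, Sirt6 peaks overlapped 15.7%, 2.17%, 4.71% and 12.5% of the regions with H3K9ac. In the groups by H3K56ac fold the shares were 18.6%, 3.76%, 5.38% and 19.9%. Single-mark regions at Sirt6 peaks had low folds: the median was 5.57 at Sirt6 peaks and 8.48 elsewhere for H3K9ac only, and 6.12 and 8.18 for H3K56ac only. Their summit pileups differed less, with medians of 15 and 18 fragments for H3K9ac only and 13 and 14 for H3K56ac only. In fold, regions with both marks were the other way round, with medians of 15.6 and 13.9 for H3K9ac and 17.9 and 11.6 for H3K56ac.

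The local background of the acetylation libraries moved with Sirt6 overlap. It can be read from each peak's pileup and fold, and it covers a window of 10000 bp that includes the peak's own tags. At Sirt6 peaks the median was 1.37 times the genome-wide value in H3K9ac-only regions and 1.67 times in H3K56ac-only regions, against 1.00 and 1.00 elsewhere. In regions with both marks it was 2.40 and 1.299 times for H3K9ac, and 3.29 and 1.29 times for H3K56ac. Among regions with a local background of at most 1.5 times the genome-wide value, Sirt6 peaks overlapped 10.6% of H3K56ac-only regions (7.53% to 14.7%). The shares there were 3.97% of H3K9ac-only regions (2.98% to 5.27%) and 2.94% of those with both marks (2.06% to 4.19%). The difference between the single-mark classes was 6.63 points there (3.29 to 10.9), while regions with both marks no longer exceeded H3K9ac-only regions (-1.03 points, -2.60 to 0.568). A strong peak raises its own local background, so this limit tends to remove strong regions. It removed 903 regions with both marks, 116 H3K9ac-only regions and 60 H3K56ac-only regions. Peak strength and local background cannot be told apart by this limit, and the part of either in these shares was not tested.

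At Sirt6 peaks the acetylation summits lay close to the Sirt6 summit. The overlap by which these regions were chosen bounds that distance, and no reference distance was computed. In the 197 regions with both marks, the median distance from it was 17 bp (H3K9ac) and 12 bp (H3K56ac). It was 66.5 bp in the 78 H3K9ac-only regions and 53 bp in the 69 H3K56ac-only regions. The Sirt6 peaks at regions with both marks had a median Sirt6 fold of 7.29 and a median length of 282 bp. Those at H3K9ac-only regions had 10.4 and 594 bp, and those at H3K56ac-only regions 11.3 and 566 bp. The 14166 Sirt6 peaks at none of the 3482 regions, 97.6% of all, had 8.08 and 386 bp. The highest H3K9ac-only regions at Sirt6 peaks lay at chr12:49352876-49353146 (H3K9ac fold 12.6), chr7:37828441-37828665 (11.3) and chr11:48137929-48138153 (11.2), each at a Sirt6 peak with a fold of 4.62 to 5.69. After the chromosome 15 region, the highest H3K56ac-only regions at Sirt6 peaks lay at chrX:52773123-52773408 (H3K56ac fold 14.2) and chr7:83977843-83978124 (13.1), with Sirt6 folds of 9.56 and 12.7, and both were called for both marks in untreated KO cells.

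Most regions with both marks were called again in other conditions. Of the 1889, 992 (52.5%) were called in all of the other 6 acetylation lists and 29 in none. Among H3K9ac-only regions 27 were called in all 6 and 298 (23.8%) in none, and among H3K56ac-only regions 1 and 111 (32.4%). The matching shares over the 6400 regions were not computed. These counts therefore compare the classes with each other and not with all regions. Both marks were called again in RA-treated WT cells at 78.7% of the regions with both marks, in untreated KO cells at 73.4% and in untreated WT cells at 69.5%. Of all 6400 regions, 27.1%, 27.2% and 31.8% had both marks in those conditions. H3K9ac-only regions were again H3K9ac only at 31.8%, 20.2% and 10.3%, in the same order of conditions, against 13.7%, 28.8% and 11.3% of the 6400. H3K56ac-only regions were again H3K56ac only at 12.2%, 12.8% and 7.87%, against 4.94%, 7.58% and 10.8%.

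Calls at the single-mark classes in the other lists were near or below the share over all regions, apart from those of the H3K9ac list of RA-treated WT cells at H3K9ac-only regions. Those of the 6400 with no call in RA-treated KO cells were included only because another list called them, which raises the shares over all regions. A class share below them therefore does not show that the class was called unusually seldom elsewhere. H3K9ac-only regions were called in 48.6% (45.8% to 51.3%) of cases by the H3K9ac list of RA-treated WT cells and in 45.9% and 46.1% by the H3K9ac and H3K56ac lists of untreated WT cells. Among the 6400 regions of all 8 lists those 3 lists had calls at 40.7%, 43.1% and 42.6%. The untreated KO lists had calls at 26.8% (H3K9ac) and 10.0% (H3K56ac) of H3K9ac-only regions, and at 3581 (H3K9ac) and 2223 (H3K56ac, 34.7%) of the 6400. The H3K56ac list of RA-treated WT cells had calls at 22.2% of H3K9ac-only regions, against 32.0% of the 6400. Of the H3K56ac-only regions, 41.1% and 37.6% were called by the untreated KO lists for H3K9ac and H3K56ac, the first below and the second close to the share of the 6400. Each of the 4 WT lists called 12.5% to 17.5% of them, below the 32.0% to 43.1% of the 6400. The missing mark had a call elsewhere at no higher share than in all regions, with the same limit on the comparison. H3K56ac was called in at least 1 of the other 3 conditions at 708 of the 1250 H3K9ac-only regions (56.6%, 53.9% to 59.4%), against 59.9% of the 6400. H3K9ac was so called at 177 of the 343 H3K56ac-only regions (51.6%, 46.3% to 56.8%), against 81.4%. In 244 H3K9ac-only regions (19.5%) and 55 H3K56ac-only regions (16.0%) the other conditions had calls for the region's own mark alone. The share of the 6400 with calls for a single mark in those conditions was not computed.

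**Figure D5:**
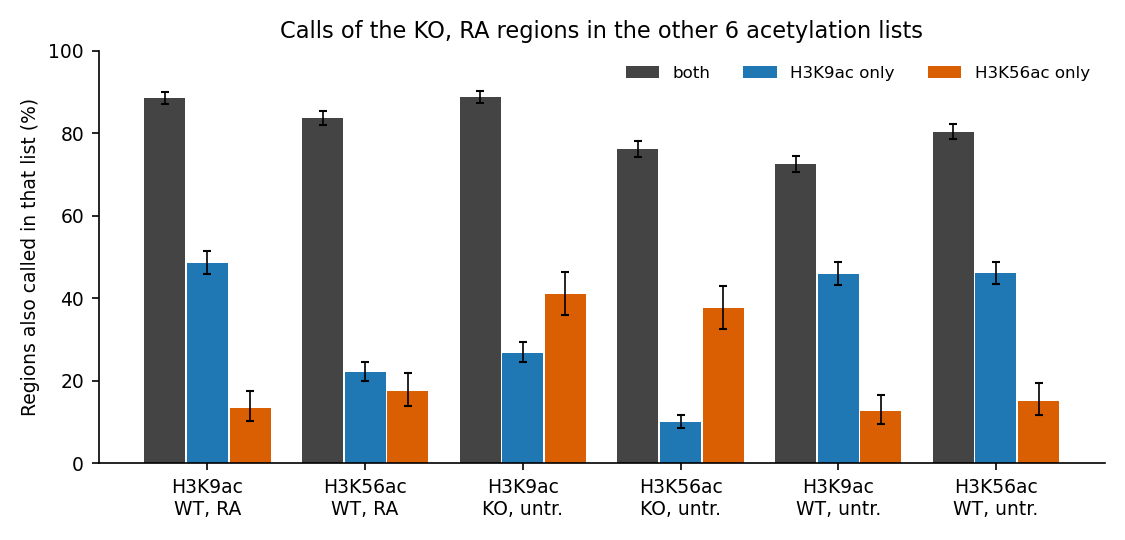
Share of the regions of RA-treated KO cells, in percent, that were also called in each of the other 6 acetylation lists, by class (grey both marks, blue H3K9ac only, orange H3K56ac only; untr., untreated). Whiskers are Wilson 95% intervals; H3K56ac-only regions reach 41.1% and 37.6% in the untreated KO lists and 12.5% to 17.5% in the WT lists.

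Along the genome, both marks were called at 53.7% of the 2952 autosomal regions (51.9% to 55.5%) and 59.8% of the 331 regions on chromosome X (54.5% to 65.0%). Among autosomes the share ran from 36.4% on chromosome 11 (36 of 99 regions; 27.6% to 46.2%) to 60.7% on chromosome 3 (139 of 229; 54.2% to 66.8%). Unplaced contigs held 178 regions, 95 of them with both marks. Sirt6 peaks overlapped 34.7% of those 95, against 9.21% of the autosomal regions with both marks.

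Windows in which 5-hydroxymethylcytosine differed between untreated KO and WT cells, as listed in the authors' deposited table, overlapped few of these regions. Of the regions with both marks, 8 overlapped a window lower in KO and 0 a window higher in KO, which allows a share of up to 0.159% (3 counts of the 1889). The numbers were 2 and 1 for H3K9ac-only regions and 4 and 1 for H3K56ac-only regions. The shares at lower windows were 0.424% (0.215% to 0.833%) with both marks, 0.16% (0.0439% to 0.582%) for H3K9ac only and 1.17% (0.454% to 2.96%) for H3K56ac only. Of all 6400 regions, 0.375% overlapped a lower and 0.125% a higher window. The H3K56ac-only share at lower windows lay above that of the 6400, but rests on 4 regions. Whether the overlaps exceed those of randomly placed windows was not tested.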

How the data were processed

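The submitters' processing notes name BWA 0.5.9, Picard, MACS2 2.0.10 and mm9. Each library had its own peak list, made at a q limit of 0.01, without a control for acetylation and against whole-cell extract for Sirt6, per the file headers. The deposited lists give the pileup signal at the summit, −log10 p and q, and fold enrichment, all computed by the authors. Of the authors' deposited CMS-IP table (edgeR) only window positions and the sign of the log2 fold change were used; its 8 columns of per-sample values were not.

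Lists were merged as described. In a region with several peaks of a mark, the one with the highest −log10 p was used. Local background was (pileup + 1) / fold - 1; its lowest value, 1.12 for H3K9ac and 0.833 for H3K56ac, lay close to tags times fragment length over genome size (1.12 and 0.830). Equal folds were assigned to fold groups by position. Shares carry Wilson, differences Newcombe and ratios Clopper-Pearson intervals at 95%. On simulated lists, 900 of 900 planted shared regions and 300 of 300 planted Sirt6 overlaps were recovered, and 467 of 500 Newcombe intervals held the true difference. Scripts ran under Python 3.11.15 with pandas 2.3.3 and numpy 2.4.6; intervals used scipy 1.17.1 and plots matplotlib 3.10.9.

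Named regions are, per class, the 5 with the highest fold and the 3 highest at Sirt6 peaks, the 3 highest and 3 lowest fold ratios, the 3 largest offsets and the 3 single-mark regions nearest to the other mark. The members, the rule and the alternatives were chosen with earlier results of these data known. The alternatives are given in the closing section.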

Additional observations from a re-analysis of the deposited data

Results flagged for a closer look

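The difference in Sirt6 share between H3K56ac-only and H3K9ac-only regions had opposite signs in the 2 KO conditions, 13.9 percentage points in RA-treated KO cells and -6.94 points in untreated KO cells (interval -11.9 to -1.94). With a −log10 q of at least 10 in the acetylation lists it was 9.57 and -6.98 points. The difference between regions with both marks and H3K9ac-only regions was 4.19 points after RA and -32.7 points in untreated KO cells (-35.7 to -29.7). With 1 library per mark and condition, neither contrast between conditions was tested.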

How the results depend on the processing

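Recomputing the results under other settings gave 114 values, 16 of them from settings chosen after seeing the data; 67 of the others and 3 of these 16 lay within the 95% interval of the value reported. Overlap of at least 50% of the shorter peak, joining peaks within 1000 bp, autosomes alone, a distance of 1000 bp to a Sirt6 peak and regions with 1 peak of each list moved no value beyond its interval. No paired analysis was possible because each group held 1 library.

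With a −log10 q of at least 10 in both acetylation lists (2780 regions), 56.04% of the regions had both marks, the ratio of H3K9ac-only to H3K56ac-only regions was 5.23, and the Sirt6 share was 1.66% for H3K9ac only and 11.2% for H3K56ac only. The Sirt6 differences were 9.57 points (H3K56ac only minus H3K9ac only), 9.77 (both minus H3K9ac only) and 0.200 (both minus H3K56ac only), the last with its sign reversed. Median folds were 15.7 and 9.43 for H3K9ac with both marks and alone, and 13.3 and 9.77 for H3K56ac; median lengths were 289 and 232 bp, and 304 and 251.5 bp. With the limit also on the Sirt6 list (chosen after seeing the data), the H3K9ac-only and H3K56ac-only shares were 0.585% and 9.69%, and the differences 9.11, 9.49 and 0.383 points, the last reversed. With the limit on the Sirt6 list alone, shares were 9.11% for both marks and 4.56% for H3K9ac only. In RA-treated and untreated WT cells the single-mark difference was 9.96 and 12.4 points at the acetylation limit, from 23.6 and 24.1 (chosen after seeing the data).

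With lists of equal length, 59.6% had both marks, the ratio was 1.00, which equal lengths fix by construction, the Sirt6 shares were 1.24% (H3K9ac only) and 16.1% (H3K56ac only), and both minus H3K9ac only was 9.26 points. Median folds were 15.2 and 10.2 for H3K9ac and 12.8 for H3K56ac with both marks; median lengths were 287 and 236 bp, and 298 and 241 bp. Without regions called in all 8 lists, all of them regions with both marks, the Sirt6 share with both marks was 7.02% and its difference from H3K9ac only 0.783 points. Without regions of raised local background (also chosen afterwards), the shares were 2.94%, 3.97% and 10.6%, the single-mark difference was 6.63 points and both minus H3K9ac only reversed to -1.03. The log2 ratio of the marks was -0.00077 on the pileup scale, likewise chosen afterwards. The cause was not tested, except that a higher limit or a shorter list by construction holds stronger peaks. The limit on local background tends to remove strong peaks, since their own tags count towards it.

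The lowest summit pileup called was 10 fragments for H3K9ac and 8 for H3K56ac, so a second mark with a lower pileup was not called. Calls also depended on the local background, so these values are not a detection limit common to all regions.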

Other observations

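At Sirt6 peaks, regions with both marks leaned towards H3K56ac on the pileup scale, which was chosen after seeing the data. On summit pileup over the genome-wide background, the H3K56ac value was higher in 168 of the 197 regions at Sirt6 peaks (85.3%) and in 773 of the other 1692 (45.7%), with median log2 ratios of 0.37 and -0.04. On fold enrichment the medians were 0.02 and -0.20, and the H3K56ac fold was higher in 104 of the 197 (52.8%) and in 430 of the 1692 (25.4%). In RA-treated WT cells the pileup medians were 0.28 and -0.01, in untreated KO cells 0.08 and -0.01, and in untreated WT cells 0.08 and -0.23. On pileup the direction was thus the same in all 4 conditions. The fold medians, in the same order, were 0.016 and -0.165, -0.0006 and -0.123, and 0.095 and -0.087. On fold, regions at Sirt6 peaks were thus higher than the others, but their own medians lay near 0. Summit pileups at these Sirt6 peaks were also higher, with medians of 74 (H3K9ac) and 69 (H3K56ac) fragments against 34 and 24 elsewhere. The median local background there was 2.40 (H3K9ac) and 3.29 (H3K56ac) times the genome-wide value, against 1.299 and 1.29 elsewhere. The pileup scale does not take this into account, and the part of local background in the lean was not tested.

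Of the 298 H3K9ac-only regions called in no other acetylation list, 13.4% (10.0% to 17.8%) lay at a Sirt6 peak, against 5.65%, 5.44% and 2.23% of those called in 1, 2 and 3 other lists. In H3K56ac-only regions the shares were 18.02%, 16.0%, 30.0% and 21.4% for 0, 1, 2 and 3 other lists, with no steady course. The local background of these subsets was not compared.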
